A study of Mus musculus with 6 samples.

Results

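The genes described here are 5 that make, import and use creatine: Gamt, Gatm, Slc6a8, Ckb and Ckmt1. RNA was measured in the centre of the retina of rd1/rd1 mice, in which a mutation of the rod phosphodiesterase gene Pde6b kills the rods and, after them, the cones. The arrays were Illumina single-colour bead arrays, and 3 samples came from animals aged 2 months and 3 from animals aged 8 months, both ages at which most rods are lost. Each sample pooled 3 to 6 punches, 1.5 mm across, and how many animals a pool held is not given. No animal was treated, all carried the rd1/rd1 genotype and no group without the mutation was measured. A value therefore compares an early with a late stage of the same degeneration, and with aging over the same months. The members were found by gene symbol in the array's annotation, which named 19057 genes, and the 5 held 6 of the array's 45281 probes: 1 each for Gamt, Gatm, Slc6a8 and Ckb, and 2 for Ckmt1.

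The set was chosen by its readout, because Gamt was among the genes that limma called higher at 8 months in these same samples. The age differences of the members are for that reason given as descriptions with their spread and without a test, and they support nothing further. A difference is the 8 month mean less the 2 month mean of the deposited values, taken here as log2, and standard errors (SE) are limma's moderated ones. On a plain log2 scale 1 unit is a doubling. The sources used here do not say whether a variance-stabilising transform was applied, and on such a scale 1 unit near background is not a doubling, so the folds below hold for plain log2 alone. A level on this scale belongs to its probe, so the levels of different genes cannot be ranked against each other.

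Creatine carries high-energy phosphate from the places in a cell that make ATP to those that spend it. Gatm makes the precursor guanidinoacetate from arginine and glycine, Gamt methylates the precursor to creatine with S-adenosylmethionine as the donor, and Slc6a8 carries creatine across the cell membrane. Creatine kinases then pass phosphate between ATP and creatine, Ckmt1 in the space between the mitochondrial membranes and Ckb, the brain type, in the cytosol. In the retina the synthesis enzymes are known mainly from Müller glia, the transporter from the capillary wall and the photoreceptor inner segment, and the mitochondrial kinase from the inner segment, where mitochondria crowd together.

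The DNA before the start sites of the member with the widest gap between the ages and of the member with the brightest probe is shown first, so that the promoters of a synthesis enzyme and of a kinase can be set side by side. Both runs are the 250 bases before the RefSeq start (build GRCm38.p6), written 5′ to 3′ on the strand of the gene, with capitals for matches, on either strand and with no overlaps among them, to the TATA motif TATAAA, the CAAT box motif CCAAT, the GC box GGGCGG, the E-box CACGTG or the cyclic AMP motif TGACGTCA. The Gamt run is chr10:80261013-80261262 on the minus strand and the Ckb run is chr12:111672339-111672588 on the minus strand.
Gamt: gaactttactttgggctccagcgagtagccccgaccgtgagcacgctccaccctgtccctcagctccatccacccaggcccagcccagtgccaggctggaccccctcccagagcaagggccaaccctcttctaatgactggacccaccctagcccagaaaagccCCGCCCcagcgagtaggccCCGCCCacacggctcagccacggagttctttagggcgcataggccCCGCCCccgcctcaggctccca
Ckb: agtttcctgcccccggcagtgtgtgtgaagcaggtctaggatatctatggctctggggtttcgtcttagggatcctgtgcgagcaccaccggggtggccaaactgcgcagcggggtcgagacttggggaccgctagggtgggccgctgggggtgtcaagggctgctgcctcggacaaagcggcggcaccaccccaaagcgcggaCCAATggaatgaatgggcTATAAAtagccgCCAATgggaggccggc

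The Gamt run held 3 matches to GGGCGG, all on the opposite strand and within 86 bases of the start, and no match to the other motifs. The Ckb run held 1 TATAAA, beginning 28 bases before the start, and 2 CCAAT matches that flank it, beginning 46 and 16 bases before the start. Of 32851 such windows over all genes, 32.7% held GGGCGG, 33.8% CCAAT and 12.4% TATAAA, so none of these motifs is rare. CACGTG (6.02% of windows) and TGACGTCA (1.55%) were in none of the members' windows. GC content was 66.8% for Gamt and 62.8% for Ckb, against a median of 52.4%. The single Gatm window held 2 CCAAT matches, the first of the 2 Ckmt1 windows held 1 TATAAA on the opposite strand and the other held 1 CCAAT. A match describes the letters of the window and nothing about which factor binds there.

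Gamt, the enzyme that completes creatine synthesis, read 7.78, 7.73 and 7.91 in replicates 1, 2 and 3 at 2 months and 8.66, 8.35 and 8.59 at 8 months. Every 8 month sample lay above every 2 month sample, and the gap between the lowest of the former and the highest of the latter was 0.44. The means were 7.81 ± 0.0920 (SD, n = 3) and 8.53 ± 0.161, a difference of 0.73 (SE 0.0898), or 1.65-fold if the scale is plain log2. Among the 12046 genes tested, 18 had a larger positive difference. Gamt was 1 of the 19 genes, 0.158% of those tested, that limma called higher at an adjusted p below 0.05, and nothing is read from that call because it led to the choice of the set. At 2 months the probe stood only 0.54 to 0.72 above the median of its arrays, near which bead array values are compressed.

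The size of the Gamt difference varied little with the samples used, from 0.66 without 8 month replicate 1 to 0.82 without 8 month replicate 2. Its call by limma did not hold when 2 month replicate 1, 2 month replicate 2, 8 month replicate 1 or 8 month replicate 3 was left out, nor with no filter on dim probes. Within the 8 month group, replicate 2 was the low sample. Within the 2 month group, replicate 3 was the high one.

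**Figure D1:**
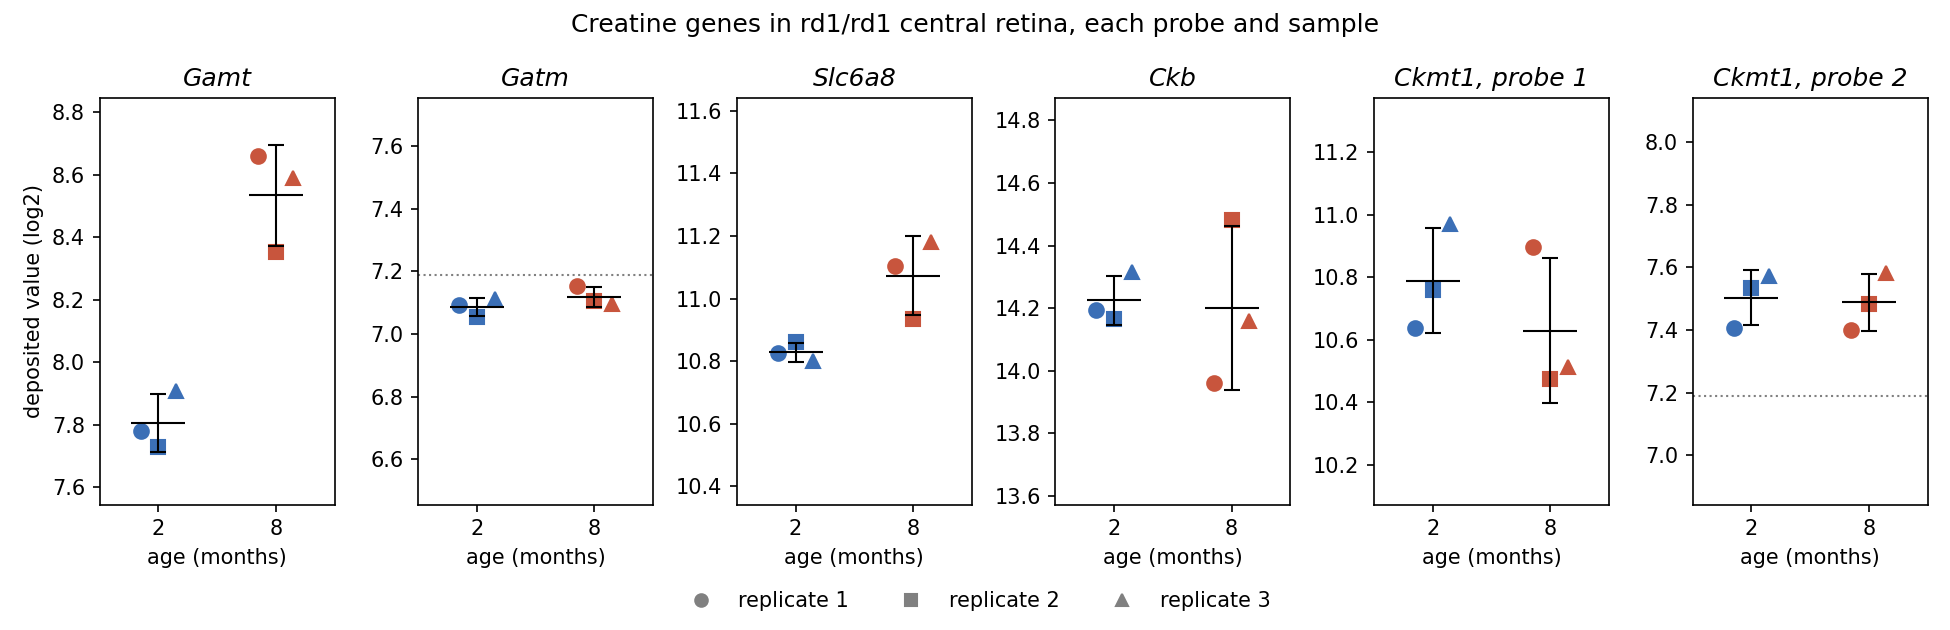
Deposited log2 value (y axis) of each of the 6 probes in each sample at 2 months (blue) and 8 months (red), with symbols for the replicates, horizontal bars for the means and whiskers for 1 SD (n = 3 per age). Every panel spans the same number of log2 units, and the dotted line is the median of the arrays where it falls in the panel. The ages do not overlap for Gamt (gap 0.44) and Slc6a8 (gap 0.07), and they overlap for the other 4 probes.

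Gatm, which makes the substrate that Gamt methylates, was not measurable. Its probe read 7.09, 7.05 and 7.11 at 2 months and 7.15, 7.11 and 7.09 at 8 months, below the median of the array in all 6 samples. It did not pass the filter, which asks for a value above that median on at least 3 arrays. The means of 7.09 ± 0.0290 and 7.12 ± 0.0311 differ by 0.03 (SE 0.0289), within background, so no direction can be read. The probe shows neither that Gatm was absent nor that it kept its level, and the first step of creatine synthesis could not be followed beside the second.

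Slc6a8, the creatine transporter, read 10.83, 10.86 and 10.80 at 2 months and 11.10, 10.93 and 11.18 at 8 months. The ages did not overlap, but the gap between them was 0.07, less than the SD of 0.126 among the 8 month samples. The means were 10.83 ± 0.0299 and 11.07 ± 0.126, a difference of 0.24 (SE 0.0699), or 1.18-fold on the same reading. Leaving out 1 sample gave differences from 0.19 to 0.31, all positive. Over all genes tested, 7.45% had every 8 month sample above every 2 month sample and 7.59% the reverse, and 273 genes had a larger positive difference than Slc6a8. As for Gamt, replicate 2 was the lowest of the 8 month samples.

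The pools differed in sex-linked RNA, and the difference ran with age only in part. The same pools gave the values of every member, and Slc6a8 itself lies on the X chromosome. The Y-linked gene Eif2s3y, at its brighter probe, read 7.79 in 2 month replicate 1 and 8.27 in replicate 2, whereas the highest of the remaining samples was at 7.18. Xist, the RNA of the inactive X, read 9.40 and then 8.73 in these pools, while all 4 others lay at 10.48 or above. The Eif2s3y probe did not pass the filter. Kdm5d, also Y-linked and below the filter, read 7.33 and 7.51 in the same pools and at most 7.17 elsewhere. Uty, at its only probe to pass, did not show this and read 7.17 to 7.25 over all samples. Raised Eif2s3y was seen in 2 of 3 pools at 2 months and in 0 of 3 at 8 months. The 2 month pool without it, replicate 3, was the highest of its age for Gamt (7.91), Ckb (14.31) and both Ckmt1 probes (10.97 and 7.57), and the lowest for Slc6a8 (10.80). The part of sex in the members' differences was not tested.

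The kinases did not separate by age. Ckb, the cytosolic brain-type enzyme, read 14.19, 14.17 and 14.31 at 2 months and 13.96, 14.48 and 14.16 at 8 months. The 8 month group held both the lowest and the highest value, so that its SD of 0.263 exceeded the SD of 0.0793 at 2 months. The difference was −0.02 (SE 0.125), and it ran from −0.17 without 8 month replicate 2 to 0.09 without 8 month replicate 1, with no stable sign. Its probe ranked between 1 and 34 of the 45281 probes on every array and was the brightest of all in 8 month replicate 2, where 14.48 is also the maximum that every array shares. Near that ceiling differences are probably understated, and a change of Ckb smaller than this spread would not have been seen.

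Ckmt1, the mitochondrial enzyme, was read by a bright and a dim probe. The bright probe gave 10.64, 10.76 and 10.97 at 2 months and 10.90, 10.48 and 10.51 at 8 months, with 8 month replicate 1 inside the range of the younger samples. The means of 10.79 ± 0.168 and 10.63 ± 0.232 differ by −0.16 (SE 0.130), and leaving out 1 sample gave −0.29 to −0.07. The dim probe read 7.41, 7.53 and 7.57 at 2 months and 7.40, 7.48 and 7.58 at 8 months, a difference of −0.01 (SE 0.0611). The probes also ordered the samples differently: 8 month replicate 1 was the highest of its age at the bright probe and the lowest at the dim one, which lay only 0.21 to 0.39 above the array median.

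Set side by side, the members did not share a direction. The differences were 0.73 for Gamt and 0.24 for Slc6a8, and −0.02 and −0.16 for the kinases Ckb and Ckmt1, whose groups overlapped. Of the 4 members that passed the filter, limma called only Gamt, as higher. That call led to the choice of the set, so nothing is read from this count. Over all genes tested limma called 0.158% higher and 0.0664% lower, and the median difference was 0.000482. The within-age SD was 0.131 for Gamt, 0.0918 for Slc6a8, 0.194 for Ckb and 0.203 for Ckmt1, against a median of 0.0823 over all genes tested. All 4 thus varied more between pools of 1 age than the median gene, the kinases most. The comparison was not matched for level, and values near the array median are compressed, so no trait of these genes is read from it. In 8 month replicate 2 Gamt, Slc6a8 and the bright Ckmt1 probe were all at the low end of their age, while Ckb was at its highest.

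**Figure D2:**
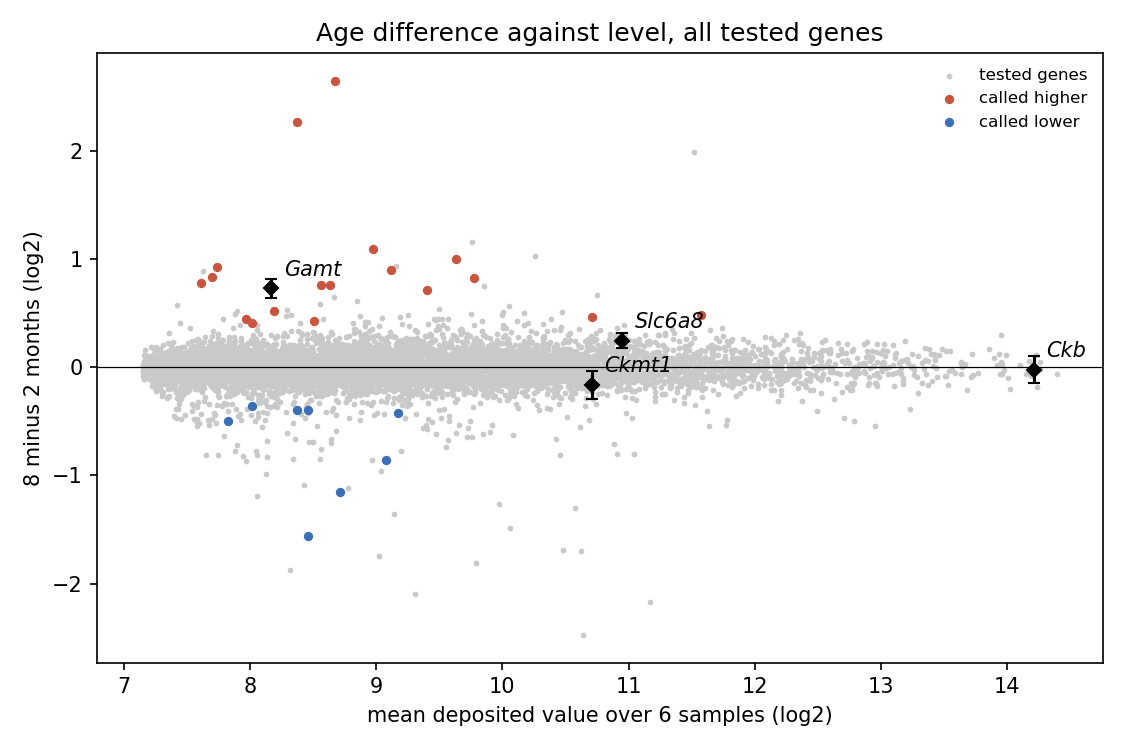
Difference between the ages (y axis, 8 minus 2 months, log2) against the mean deposited value over the 6 samples (x axis, log2) for the 12046 genes tested (grey), with genes called by limma in red (19 higher) and blue (8 lower). Diamonds with bars of 1 SE mark the 4 members tested; Gamt stands at 0.73 apart from the cloud of genes, Slc6a8 at 0.24 near its upper edge, and Ckb at −0.02 close to the top of the scale.

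The genes whose levels followed each member most closely over the 6 samples are given by Pearson correlation, as a description. With 6 samples high values are common: 53 of 12045 genes passed 0.95 with Gamt, and the age difference itself is part of the likeness. For Gamt they were Gng4, a G protein gamma subunit, at 0.996, Pcdhb8, a protocadherin, at 0.995, and Epm2aip1 at 0.993. Epm2aip1 had an age difference of 0.25 at this probe, and of 0.32, −0.10, 0.07 and −0.03 at its other kept probes. Gng4 read 8.19, 8.19 and 8.39 at 2 months and 9.11, 8.80 and 9.12 at 8 months, with the same low 8 month replicate 2 and high 2 month replicate 3 as Gamt. For Slc6a8 they were Sh3glb1 at 0.990, Prkab2, a regulatory subunit of the energy sensor AMPK, at 0.988, and Cyp7b1 at 0.986.

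For Ckb the closest were Zpr1 at 0.994, Sh2b2 at 0.993 and Il18bp at 0.987, all with differences between −0.03 and 0.001. The Sh2b2 probe read only 7.13 to 7.30, near the array median. For the bright Ckmt1 probe they were Afmid at 0.997 and the lens crystallins Crygd at 0.986 and Cryba1 at 0.982. The Afmid probe read only 7.42 to 7.53, also near the array median, with a difference of −0.04. Its other kept probes had differences of −0.01, 0.01 and 0.05. Cryba1 read 8.27, 8.48 and 9.04 at 2 months and 9.00, 7.40 and 7.58 at 8 months, so that, as for Ckmt1, 2 month replicate 3 and 8 month replicate 1 were the high samples. Crystallins vary with lens carried into a dissection and are also made in retina, and their part in the Ckmt1 values was not tested. For Gatm, which read background, the closest genes (Rab5a at 0.995, H3c4 at 0.984 and Tra2b at 0.982) carry no information on Gatm itself.

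The pathways around creatine were followed with 7 lists, 131 genes in all, of which 97 were tested. With p-values adjusted over all genes tested, limma called 1 of the 97 lower and 0 higher, against 0.0664% lower and 0.158% higher of all genes. A single call is too few to set against a share. At an unadjusted p below 0.05, 5 were higher and 6 lower. Over all 12046 genes the shares at that p were 5.10% higher and 5.34% lower, close to the share that 5 and 6 of 97 make. The ages did not overlap, with 8 months higher, for 9 of the 97 (9.28%, against 7.45% of all genes) and, with 8 months lower, for 11 (11.3%, against 7.59%). The median difference was −0.01. By the counts at the unadjusted p and of ages without overlap, the genes around creatine lay close to the background of all genes.

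Of the supply of arginine and glycine, the substrates of Gatm, 27 genes were tested, 12 with positive and 15 with negative differences (median −0.02). Slc7a3, a transporter of arginine and other cationic amino acids, fell by 0.36 on the log2 scale (SE 0.0454, limma adjusted p = 0.0490). It read 8.23, 8.19 and 8.16 at 2 months and 7.82, 7.84 and 7.84 at 8 months, with no overlap. Its other probe, near background, had a difference of 0.05. The call was lost when any 1 of the 6 samples was left out or its probes were averaged, which left 0 pathway genes called lower. Ass1, which makes the precursor of arginine, had a difference of 0.29 (SE 0.128), and Oat, which breaks down ornithine, one of −0.27 (SE 0.194), both with overlapping ages.

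The S-adenosylmethionine cycle supplies the methyl group that Gamt uses. Of 16 tested genes 7 had positive and 9 negative differences (median −0.03), and 0 were called by limma, with 0 at an unadjusted p below 0.05. The members with the largest differences were Mthfd1, a folate enzyme, at 0.15 (SE 0.111), Ahcyl2 at 0.15 (SE 0.0936) and Ahcy, which clears the product of methylation, at −0.13 (SE 0.104). Other methyltransferases of small molecules spend the same donor. Their 10 tested genes spanned −0.07 to 0.03 (median −0.01), with Inmt at −0.07 (SE 0.0893), Coq5 at −0.06 (SE 0.0913) and Gnmt, the glycine methyltransferase, at 0.03 (SE 0.0564). None was called by limma and 0 had an unadjusted p below 0.05.

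Among the other creatine kinases, Ckm and both probes of Ckmt2 belong chiefly to muscle. Ckm stayed below the filter, at 7.05 to 7.45, and the brighter Ckmt2 probe had a difference of −0.12 (SE 0.106). Ckmt2 read 7.89 in 2 month replicate 2, against 7.48 to 7.58 in the other 5 samples, and Ckm was also highest there. The skeletal muscle list was highest in the same sample. The creatine carrier Slc16a12 read 7.02 to 7.11, below the filter, and Slc22a5, a carnitine carrier, had a difference of −0.22 (SE 0.0928, and 0.03 and 0.04 at its other probes).

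Adenylate kinases, nucleoside diphosphate kinases and AMPK subunits handle the same phosphate store by other routes. Of 20 tested genes 10 were positive and 10 negative (median −0.01), and 0 were called by limma. At an unadjusted p below 0.05, 2 of the 20 were higher and 3 lower, against 5.10% and 5.34% of all genes. Without overlap between the ages, 4 of the 20 were higher and 3 lower at 8 months, against 7.45% and 7.59% of all genes. These counts lay above the shares over all genes, in a list of only 20. Nme3, a nucleoside diphosphate kinase, had a difference of −0.24 (SE 0.0464, limma adjusted p = 0.137). The AMPK beta subunits went in opposite directions, Prkab2 at 0.24 (SE 0.0742) and Prkab1 at −0.22 (SE 0.0561), both without overlap between the ages and neither called (limma adjusted p = 0.312 and 0.235).

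Genes of mitochondrial ATP export, the partners of Ckmt1, had a median difference of 0.03 over 12 tested genes, with 0 called by limma and 1 in each direction at an unadjusted p below 0.05 (5.10% and 5.34% of all genes). Hk1, the hexokinase of neurons, was at 0.29 (SE 0.115, and 0.17 at its other probe), Vdac2, a pore of the outer membrane, at 0.16 (SE 0.135), and the ATP carrier Slc25a5 at −0.15 (SE 0.0554). Ion pumps, the main users of ATP in retinal neurons, had a median of 0.03 over 10 tested genes, again with 0 called and 1 higher at an unadjusted p below 0.05, against 5.10% of all genes. Atp2b2, a calcium pump of the cell membrane, was at 0.27 (SE 0.0509, limma adjusted p = 0.133) with no overlap, though its other kept probes were at 0.01 and −0.03. Atp1b1, a sodium pump subunit, was at 0.16 (SE 0.10). Atp2a1, the calcium pump of muscle, was at −0.77 (SE 0.459) and, at 9.41, highest in 2 month replicate 2.

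**Figure D3:**
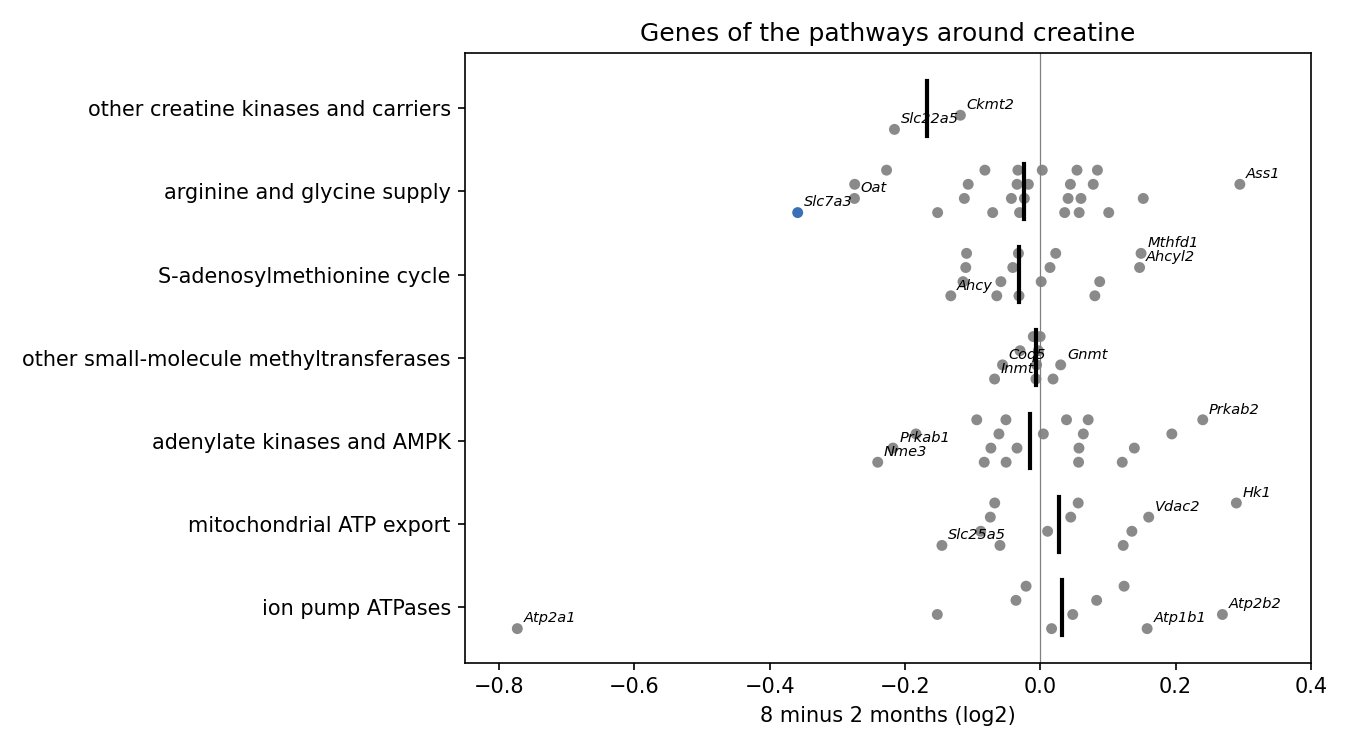
Difference between the ages (x axis, 8 minus 2 months, log2) of each tested gene of the 7 pathway lists (y axis), with the list median as a black bar; vertical offsets only separate the points. The medians lie between −0.17 and 0.03, and the only called gene, in blue, is Slc7a3 at −0.36.

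Markers of the cells a punch can hold were read in the same samples, as the mean log2 value of each list. Müller glia markers, 17 tested of 19, lay at 10.7 to 10.8 in every sample of both ages (median difference 0.01, 9 positive and 8 negative), with 1 called higher by limma, Prss56, at 0.78 (SE 0.0954). The ages did not overlap for 1 marker that was higher and 3 that were lower at 8 months, against 7.45% and 7.59% of all genes tested. Among the lower ones were Spc25 at −0.42 (SE 0.0838) and Car14 at −0.24 (SE 0.0766), neither called. Of all genes tested, 0.158% were called higher. Their defining gene Rlbp1 read 12.43 to 12.89, far above the array median of 7.19. Oligodendrocyte markers, 7 tested of 13, cells that the mouse retina lacks and the optic nerve holds, lay at 7.77 to 7.96 at 2 months and 7.70 to 7.87 at 8 months. Mog and Mobp were at background at every probe, while the brightest Mbp probe read 8.66 to 9.01.

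The mean levels of 5 lists did not overlap between the ages, as those of Gamt and Slc6a8 did not. Of 14 amacrine cell markers, all tested, 13 had positive differences. Limma called 2 higher (against 0.158% of all genes tested), the neuropeptides Tac1 at 1.00 (SE 0.130) and Vip at 0.83 (SE 0.0675). Their mean level was 10.17 to 10.21 at 2 months and 10.37 to 10.50 at 8 months, and 8 month replicate 2 was the lowest of its age there too. That sample was also the lowest of its age for the ganglion cell (10.75) and endothelial cell (8.54) lists, and for no other marker list. Cone markers, 11 tested of 14, lay at 9.92 to 10.26 and at 8.69 to 9.27. Limma called 2 of them lower (against 0.0664% of all genes tested), the cone arrestin Arr3 at −1.55 (SE 0.127) and the cone transducin subunit Gnat2 at −0.86 (SE 0.0818). Rod markers, 11 tested of 15, lay at 8.34 to 8.56 and at 8.09 to 8.25, but 5 had positive and 6 negative differences with a median of −0.02, and the largest were those of Sag at −1.81 (SE 0.315) and Pde6g at −1.35 (SE 0.183), neither called. Red blood cell markers, 4 tested of 9, lay at 9.81 to 10.89 and at 8.95 to 9.00. Bipolar cell markers, 10 tested of 12, lay at 11.69 to 11.75 and at 11.65 to 11.67 (median difference −0.07). The ages overlapped for skeletal muscle, 11 tested of 15, at 7.71 to 8.87 and at 7.66 to 7.81, where 2 month replicate 2 was the highest sample. They also overlapped for pigment epithelium, all 16, at 9.55 to 10.09 and at 8.96 to 9.55, and neither list had a called gene. The remaining lists had median differences of −0.002 (endothelial cells), −0.07 (pericytes and smooth muscle), −0.01 (astrocytes) and 0.06 (ganglion cells). Lower without overlap were 3 of 10 tested pericyte and smooth muscle markers and 1 of 5 astrocyte markers, against 7.59% of all genes. Among these were Vtn at −0.81 (SE 0.130) and Igf2 at −0.47 (SE 0.129), neither called. Higher without overlap was 1 of 13 endothelial markers, against 7.45%, and of 9 ganglion cell markers 0 separated either way. Rlbp1 stands in the Müller glia and pigment epithelium lists, Isl1 in those of ganglion and bipolar cells, Atp2a1 in those of muscle and ion pumps, and Slc6a9 in those of amacrine cells and glycine supply. The part of these cells in the values of Gamt and Slc6a8 was not tested. In bulk samples, fewer cells of a type and less RNA per cell cannot be told apart.

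**Figure D4:**
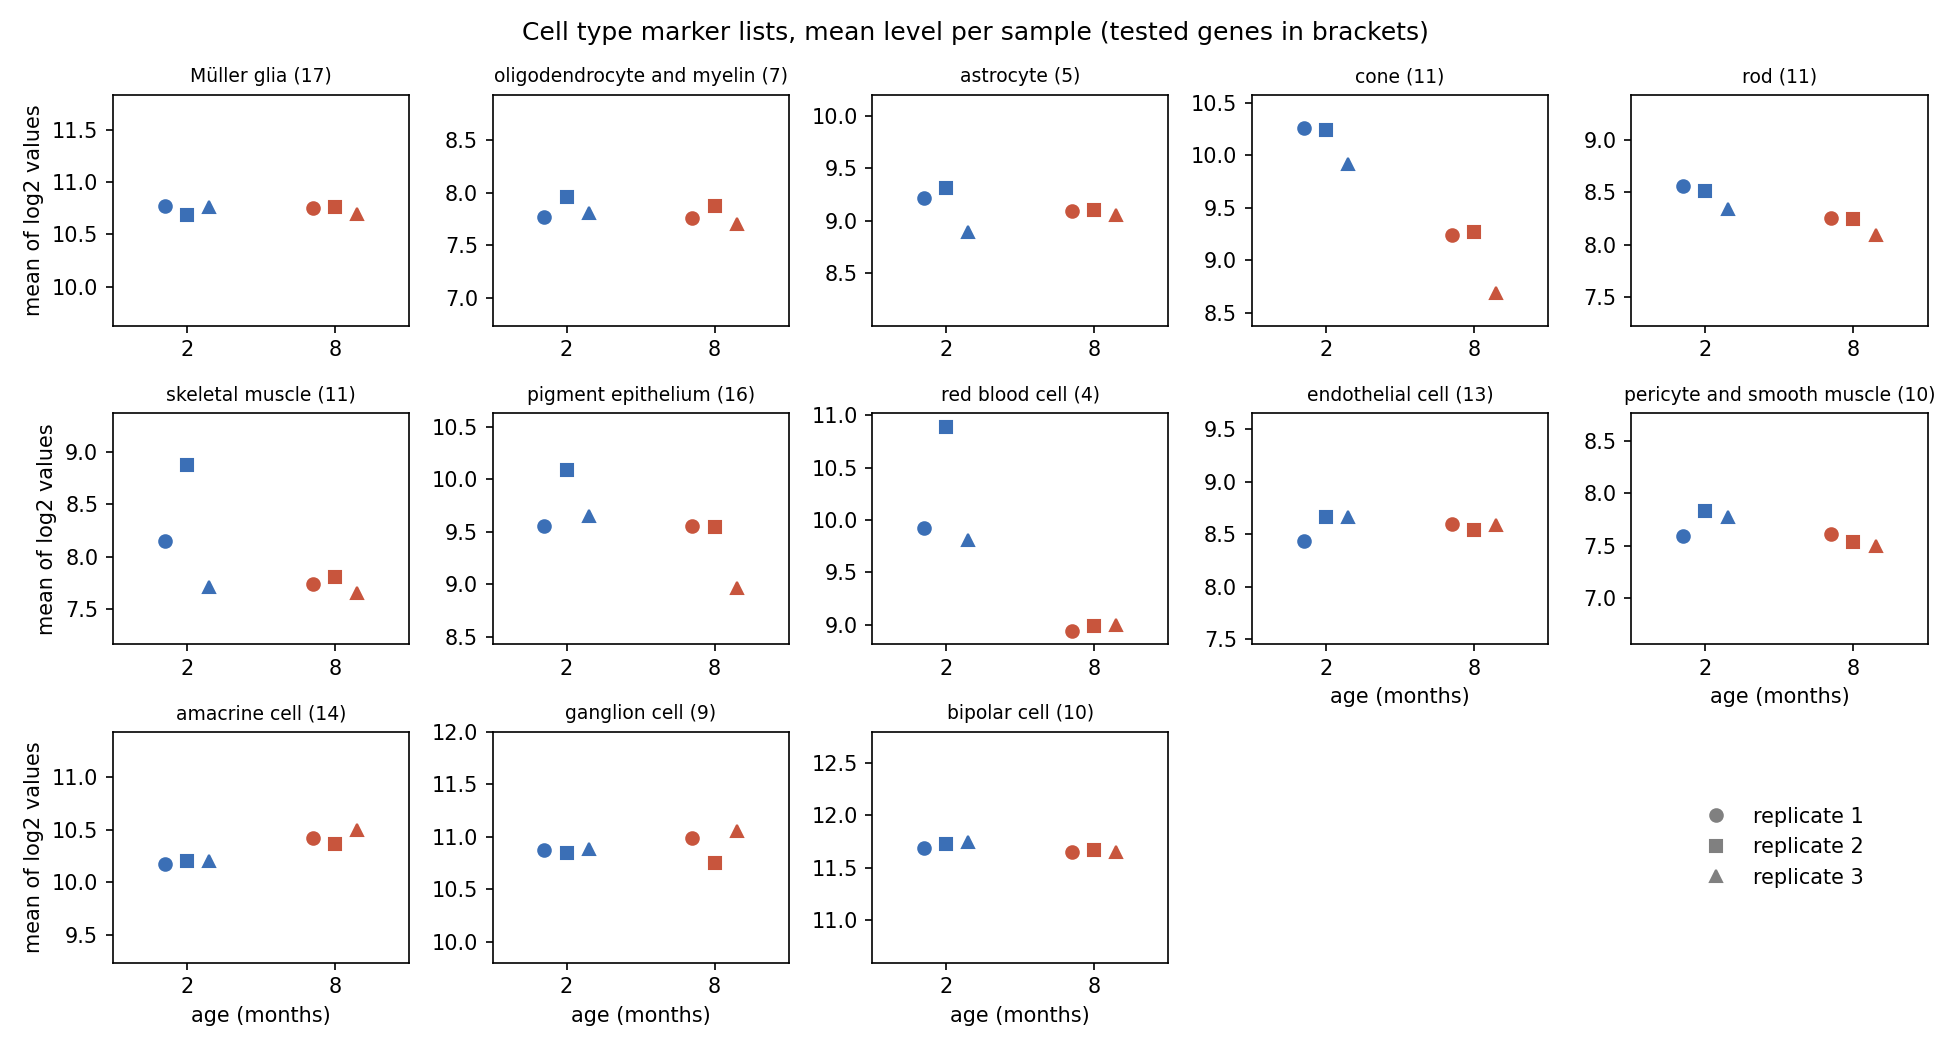
Mean log2 value of the tested genes of each marker list (y axis) in each sample at 2 months (blue) and 8 months (red), with symbols for the replicates and the number of tested genes in brackets. All panels span the same number of log2 units. The cone, rod, red blood cell, amacrine and bipolar lists separate by age, and the Müller glia list stays at 10.7 to 10.8.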

How the data were processed

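The 6 samples, 3 per age, were each hybridised to an Illumina bead array. The deposited table gives 1 log2 value per probe and sample; the scale was read from the values, and the sorted columns differ by at most 0.00307, as after quantile normalization by the authors. The software was not given in the sources used here, nor was any background correction. Arrays correlated at 0.990 to 0.996, and signal over background, with 3 arrays per age, limits the precision.

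Groups and replicate numbers came from the sample titles, which number the 2 month samples 1, 2 and 3. Their descriptions give 1, 1 and 2, so that n = 3, the samples left out and the replicate block rest on the titles. Probes were named through GEO's platform annotation, which can be old (34885 probes with 1 symbol, 18 with several, 10378 with none). A probe was kept when above the 50th percentile of its array on at least 3 arrays (22458 probes), and a gene was its kept probe with the highest mean. The fit was limma 3.58.1 in R 4.3.3 (lmFit, eBayes, Benjamini-Hochberg over 12046 genes, threshold 0.05). P-values measure only the spread between these pools. SEs of probes outside that table come from a fit over all probes. On simulated data for this comparison (12046 genes) it recovered 80.6%, 95.5% and 100% of genes changed by 0.5, 1 and 2. The simulation drew independent normal noise and changed 200 genes, so these shares do not carry over to the data. In the data the cone gene Pde6h, with a difference of −2.47, was not called (limma adjusted p = 0.123). A missing call therefore does not show that a gene kept its level.

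The members, lists, alternatives and the rule for named genes were chosen with earlier results of these data known. Named are the members, each pathway list's called genes and 3 largest differences, and the 3 genes most like each member. Marker and sex-linked genes are given beside the members and were chosen after their values were seen. Promoters come from RefSeq, which matched 4 of the 5 members (5 windows).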

Additional observations from a re-analysis of the deposited data

How the results depend on the processing

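The members' differences moved by less than their within-age SD under all 14 alternatives, and those of Gamt, Slc6a8 and the bright Ckmt1 probe kept their sign, while that of Ckb did not. Taking the mean of both probes gave −0.09 for Ckmt1. Renormalizing the arrays (quantile, median or cyclic loess) left 18 to 20 genes higher and 8 lower. Called genes, higher and lower, numbered 5 and 2 when dim probes were not filtered, 38 and 35 under a stricter filter, and 52 and 52 with a trended, robust variance prior; the cause was not tested. Leaving out 1 sample gave 2 to 14 higher and 0 to 20 lower, with 0 lower without 2 month replicate 1, and 0 pathway genes lower in every case. The mean of the kept probes also left 0 pathway genes lower. Same-numbered samples deviated together only weakly, at correlations of 0.0239, 0.139 and 0.160. With no reference for such values, they cannot tell whether the numbers pair the samples. With the replicate number as a block 14 genes were higher, 18 lower and 0 pathway genes lower, and the SE of Gamt was 0.0680. Gamt kept its call under 9 of the 14 alternatives. Signal over background limits Gatm, the dim Ckmt1 probe and the 2 month Gamt values, and the top of the scale limits Ckb.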
